A study of Mus musculus with 6 samples.

Results

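Fibroblast growth factor (FGF) signalling was examined in whole mouse kidneys at embryonic day 12.5 through 9 genes: the ligands Fgf7, Fgf8, Fgf9 and Fgf10, the receptor tyrosine kinases Fgfr1, Fgfr2, Fgfr3 and Fgfr4, and the kinase-less receptor Fgfrl1. The genes were chosen by name, and every probe set was taken whose platform annotation gives a single gene symbol that is a member. This gave 21 of the 45101 probe sets, for 9 of the 18193 genes that have a probe set of their own. The 6 Affymetrix arrays were 3 of normal kidneys and 3 of kidneys labelled Hoxb7-Cre,Gfp;beta-catenin deficient. In the second group the beta-catenin gene (Ctnnb1) carries loxP sites around exons 2 to 6 and meets Cre recombinase under control of Hoxb7, a promoter used to drive expression in the ureteric bud. No further allele, strain or Cre status of the normal kidneys is given in the labels. Dissected kidneys were distributed at random among 3 vials, so an array may hold RNA of several embryos, and p-values measure the spread between vials, part of which may be technical. The knockout arrays are named from their titles, since another label field, the description, calls them normal.

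FGF ligands bind receptor tyrosine kinases together with heparan sulfate and start the Ras-MAP kinase cascade, whose outputs include the Etv transcription factors and the Sprouty inhibitors. In the kidney, Fgf7 and Fgf10 act on the ureteric bud, the epithelial tree that forms the collecting ducts, through Fgfr2. Fgf9 helps to maintain nephron progenitors, and Fgf8 is needed in the forming nephron for expression of Wnt4 and Lhx1. Fgfr1 and Fgfr2 serve together in the kidney mesenchyme, and Fgfrl1, which binds FGFs but lacks the kinase domain, is required for nephron formation.

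Beta-catenin acts in the nucleus through Tcf/Lef factors, whose DNA motif has the core CTTTG. A promoter window of 300 bases, from 250 before to 50 after the annotated start, was at hand from RefSeq (GRCm38.p6) for 7 of the 9 genes (not for Fgf8 and Fgfr1), in 8 windows. The core, searched on both strands, was present in 5 of the 8 windows and in 53.9% of all 32851 windows of this length. The longer forms CTTTGAA and CTTTGAT were present in 0 of the 8 windows, and 1 or the other in 8.7% of all windows. Such matches describe letters and not binding, which was not measured here. The windows of Fgfrl1 and Fgfr2 are shown as examples of receptor genes with a probe set whose knockout and normal arrays did not overlap. For Fgfr2 this was a probe set too dim for the filter given below, and its brighter probe sets overlapped. Fgfr4 also had such a dim probe set, and its window is not shown. The core or its reverse complement is in capitals.
Fgfrl1 (GRCm38.p6, chr5:108693979-108694278, plus strand): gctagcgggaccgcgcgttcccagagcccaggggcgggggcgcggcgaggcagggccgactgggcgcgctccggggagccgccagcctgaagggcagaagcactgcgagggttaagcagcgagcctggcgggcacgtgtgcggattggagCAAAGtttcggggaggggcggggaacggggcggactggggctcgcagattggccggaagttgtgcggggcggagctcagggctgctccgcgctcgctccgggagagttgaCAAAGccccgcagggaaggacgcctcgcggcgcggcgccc
Fgfr2 (GRCm38.p6, chr7:130266759-130267058, minus strand): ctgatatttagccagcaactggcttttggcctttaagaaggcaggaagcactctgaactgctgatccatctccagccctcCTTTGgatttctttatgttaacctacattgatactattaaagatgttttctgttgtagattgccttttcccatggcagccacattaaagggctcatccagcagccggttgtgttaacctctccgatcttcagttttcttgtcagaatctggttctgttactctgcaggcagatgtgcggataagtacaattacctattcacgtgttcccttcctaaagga
The Fgfrl1 window held the core 2 times, each on the strand opposite to the gene, and the Fgfr2 window held it 1 time on the gene's own strand.

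Values are linear signals from MAS5, Affymetrix's summary of the matched and mismatched probes of a probe set, and differences are knockout minus normal on the log2 scale with their standard error (SE). All 9 genes were measured. A filter kept the probe sets above the 40th percentile of mean log2 signal, which corresponds to a signal of 14.7, and 18 of the 21 passed it. The other 3, 1 of Fgfr2 and 2 of Fgfr4, are described without a test. None of the 18 kept probe sets differed between knockout and normal kidneys at an adjusted p under 0.05 (limma with Benjamini-Hochberg adjustment over 27022 probe sets), against 0.581% of all kept probe sets. An unadjusted p under 0.05 was reached by 1 of the 18, a probe set of Fgfr1, against 11.5% of all. The knockout arrays lay entirely below the normal arrays for 2 of the 18, of Fgfr1 and Fgfrl1, and entirely above for 0, against 17.9% of all kept probe sets without overlap in either direction. The log2 difference, knockout minus normal, was below 0 for 13 of the 18, against 51.9% of all kept probe sets, and its median was -0.11 against -0.01. The first 3 of these shares were no larger for the FGF probe sets than for all kept probe sets. Probe sets of 1 gene read the same RNA, so the 18 are not independent. The median standard error was 0.25 for the 18 and 0.19 for all kept probe sets.

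**Figure D1:**
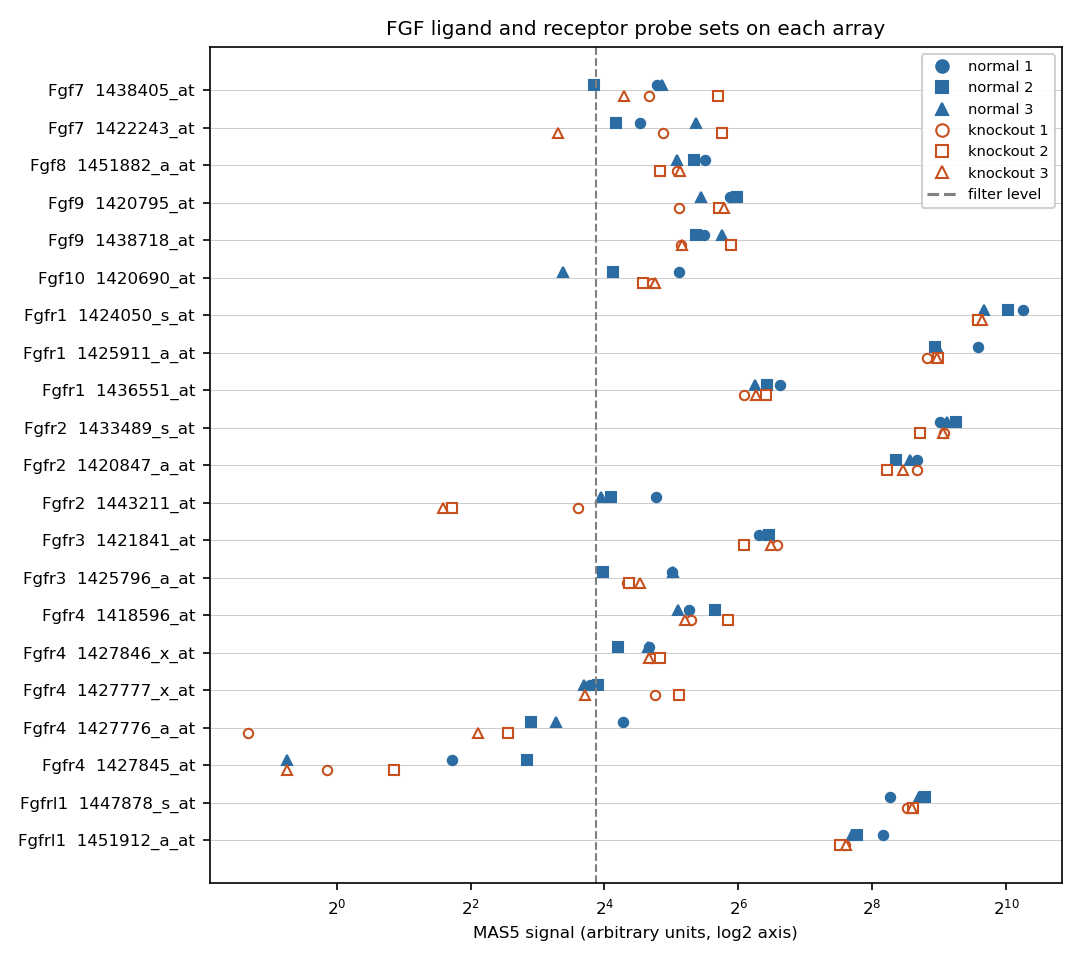
MAS5 signal on a log2 axis of the 21 probe sets of FGF ligands and receptors, with filled blue symbols for the normal and open orange symbols for the knockout arrays, shaped by replicate. The dashed line marks the filter signal of 14.7. Fgfr1, Fgfr2 and Fgfrl1 each have probe sets far to its right on all 6 arrays. Those of Fgf7 and Fgf10 lie near it, and those of Fgf8 and Fgf9 lie to its right on all 6 arrays.

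Array medians ran from 24.9 to 32.1, and the targeted gene Ctnnb1 was not lower in the knockout arrays, at log2 differences of 0.09, 0.12 and 0.16 for its 3 probe sets. Kidney markers were present: 10 of 11 ureteric epithelium genes and 9 of 9 nephron progenitor genes passed the filter on dim signals. Skeletal muscle genes were high on 2 knockout arrays. Their list of 8 measured genes deviated from the normal mean by 1.72, 4.31 and -0.17 in knockout replicates 1 to 3 on the log2 scale. Normal replicate 1 was the highest array for the chromaffin and neural list, at 1.52, and for 7 of the 18 kept FGF probe sets. Knockout replicate 1, next on that list at 1.11, was the highest array for 1 of the 18 and the lowest for 5. Knockout replicate 2 was the highest array for 6 of the 18, and each other array for 3 or fewer. Because kidneys were sampled whole, fewer cells of a type and less RNA per cell cannot be told apart.

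The ligands of the ureteric bud, Fgf7 and Fgf10, gave dim and scattered signals. Fgf10 (probe set 1420690_at) gave signals of 34.7, 17.5 and 10.4 on normal arrays 1 to 3 and of 26.2, 23.8 and 27.1 on knockout arrays 1 to 3. The knockout values lay close together within the span of the normal ones. The log2 difference was 0.47 (SE 0.44, 95% interval from -0.52 to 1.47; limma adjusted p = 0.699). It ranged from 0.06 without normal replicate 3, the dimmest array for this gene, to 0.93 without normal replicate 1, the brightest (limma adjusted p = 0.453).

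Fgf7, also called keratinocyte growth factor, was measured by 2 probe sets. The first, 1438405_at, gave signals of 27.6, 14.3 and 29 on normal arrays 1 to 3 and of 25.3, 52 and 19.5 on knockout arrays 1 to 3. The second, 1422243_at, read 23.2, 18.1 and 41.4 and then 29.4, 54.1 and 9.9 in the same order. In both, knockout replicate 2 was the highest of the 6 arrays, and the groups overlapped. The log2 differences were 0.39 (SE 0.44; limma adjusted p = 0.765) and -0.05 (SE 0.59; limma adjusted p = 0.984). Without knockout replicate 2 they were -0.02 and -0.60, so the sign of the first rests on that array. It was the highest array for the skeletal muscle, macrophage and renal stroma lists, at 4.31, 0.87 and 0.21 from the normal mean on the log2 scale. For renal stroma normal replicate 1 was close, at 0.18. Knockout replicate 1, where the muscle list stood at 1.72, gave Fgf7 signals within the normal span in both probe sets. The part of any of these cell types in the Fgf7 signal was not tested.

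Fgf8, the ligand of the forming nephron, had a single probe set, 1451882_a_at. It gave signals of 45.5, 40.4 and 34 on normal arrays 1 to 3 and of 34, 28.4 and 34.9 on knockout arrays 1 to 3. The knockout arrays were at or below the lower end of the normal range apart from replicate 3, which was slightly above it. The log2 difference of -0.30 (SE 0.24, 95% interval from -0.84 to 0.25) did not pass (limma adjusted p = 0.657). It was -0.20 without normal replicate 1 and also -0.20 without knockout replicate 2. Beside it, the renal vesicle markers, genes of the first epithelial stage of the nephron, had a log2 difference below 0 for 9 of 9 genes, with 7 of them not overlapping between the groups, against 19.3% of all genes tested, and 0 past the threshold. Their summed signal was 4378 to 4766 on normal arrays and 3075 to 3642 on knockout arrays, and none was at 0. Their part in the Fgf8 value was not tested.

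Fgf9, a ligand that supports nephron progenitors, was measured by 2 probe sets. The first, 1420795_at, gave signals of 58.9, 63.3 and 43.6 on normal arrays 1 to 3 and of 34.7, 52.4 and 55.3 on knockout arrays 1 to 3. The second, 1438718_at, read 44.9, 41.1 and 54.2 and then 35.4, 59.3 and 35.8. The groups overlapped in both, and the probe sets ordered the arrays differently. Their log2 differences were -0.23 (SE 0.26; limma adjusted p = 0.759) and -0.14 (SE 0.27; limma adjusted p = 0.872). Without knockout replicate 1, the dimmest array in both, they were -0.02 and -0.01, and with each array left out in turn they reached -0.39 and -0.38.

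Of the receptors, Fgfr1 was the member with the smallest p. It is a main FGF receptor of mesenchymal cells. Its brightest probe set is 1424050_s_at, whose suffix marks probes that can match more than 1 transcript. It gave signals of 1224, 1041 and 816 on normal arrays 1 to 3 and of 761, 764 and 796 on knockout arrays 1 to 3. All 3 knockout arrays lay below all 3 normal arrays, but only by a small gap between normal replicate 3 and knockout replicate 3. The mean was 1027 ± 205 in normal and 774 ± 19.2 in knockout kidneys (SD, n = 3 per group), so most of the spread was among the normal arrays. The log2 difference was -0.39 (SE 0.14, 95% interval from -0.70 to -0.08), with an unadjusted limma p of 0.0185 and an adjusted p of 0.347. With arrays centred to a common median the log2 difference was -0.38, with an unadjusted limma p of 0.101.

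The other Fgfr1 probe sets had the same sign and smaller differences. Probe set 1425911_a_at gave signals of 766, 491 and 501 on normal arrays 1 to 3 and of 454, 506 and 502 on knockout arrays 1 to 3, so normal replicate 1 alone stood apart. Its log2 difference of -0.24 (SE 0.16; limma adjusted p = 0.607) was -0.03 without that array. Probe set 1436551_at read 98.5, 86.2 and 75.7 and then 68.2, 85.4 and 76.5, with overlap and a log2 difference of -0.18 (SE 0.18; limma adjusted p = 0.726), and of -0.08 without normal replicate 1. For the brightest probe set the difference was -0.25 without normal replicate 1 (limma adjusted p = 0.470) and -0.55 without normal replicate 3 (limma adjusted p = 0.0916). With the mean of all 3 probe sets Fgfr1 stood at -0.27 (SE 0.14; limma adjusted p = 0.481). Normal replicate 1 was also the array with the highest summed chromaffin and neural signal, at 1645 against 260 and 439 on the other normal arrays. Knockout replicates 1 to 3 gave 1217, 606 and 298, with 7 of 8 markers measured and none at 0. Chgb alone gave 697 of the 1645, and Elavl4 was lowest on normal replicate 1, at 87.9. Knockout replicate 1, the next highest array for this list, was the lowest array for all 3 Fgfr1 probe sets. Normal replicate 1 was the highest array for the endothelium list too, with a summed signal of 1737. The other normal arrays gave 1064 and 1247 and the knockout arrays 1168 to 1341, with 6 of 6 markers measured and none at 0. The part of either cell type in the Fgfr1 values was not tested.

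Over the 6 arrays, the genes whose log2 signals followed the brightest Fgfr1 probe set most closely were Exosc10, Supt6, Cul7, Ints1 and the collagen chain gene Col4a1, with Pearson r from 0.990 to 0.996. Of the 12463 genes compared, 176 had an r above 0.95 with Fgfr1. The 6 arrays that give these values are shared by all genes, and the values are a description without a p.

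Fgfr2, the receptor through which Fgf7 and Fgf10 reach the ureteric bud, was measured by 2 bright probe sets and 1 dim one. Its brightest, 1433489_s_at, gave signals of 516, 609 and 554 on normal arrays 1 to 3 and of 538, 422 and 530 on knockout arrays 1 to 3. Knockout replicate 2 was the lowest array, and the log2 difference was -0.18 (SE 0.12, 95% interval from -0.45 to 0.09; limma adjusted p = 0.594). Without that array it was -0.06. The second, 1420847_a_at, read 408, 328 and 379 and then 407, 300 and 351, at a log2 difference of -0.08 (SE 0.14; limma adjusted p = 0.849). The 95% intervals of these 2 probe sets reached down to -0.45 and -0.39. The ureteric epithelium list was lowest in knockout replicate 2 as well, at -0.31 from the normal mean on the log2 scale, against 0.10 and -0.06 in knockout replicates 1 and 3. Its summed signal was 3654 to 4445 on normal and 3148 to 4872 on knockout arrays, with no marker at 0, and its part in the Fgfr2 values was not tested.

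The dim Fgfr2 probe set, 1443211_at, is described without a test. It gave signals of 27.3, 17.2 and 15.4 on normal arrays 1 to 3 and of 12.2, 3.3 and 3 on knockout arrays 1 to 3, without overlap. All 3 knockout values lay under the filter signal of 14.7, where MAS5 values scatter widely on a log scale. The log2 means were 4.27 and 2.31, a difference of -1.97. In the fit without the filter it did not pass (limma adjusted p = 0.441), and with 16 added to each signal before log2 the difference was -0.71. Which transcript form this probe set reads, and which splice form of the ligand-binding domain the bright ones read, was not analysed here.

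Fgfr3, a receptor best known for restraining bone growth, was measured by 2 probe sets. Probe set 1421841_at gave signals of 78.9, 87.6 and 88.3 on normal arrays 1 to 3 and of 95.6, 68.2 and 89.5 on knockout arrays 1 to 3. Its means of 84.9 ± 5.24 and 84.4 ± 14.4 (SD, n = 3 per group) were nearly equal, and the log2 difference was -0.02 (SE 0.18, 95% interval from -0.43 to 0.39; limma adjusted p = 0.974). The dimmer 1425796_a_at read 32.2, 15.8 and 32.4 and then 20.1, 20.7 and 23, at -0.26 (SE 0.36; limma adjusted p = 0.811), which ran from -0.61 without normal replicate 2 to -0.09 without normal replicate 1 or 3.

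**Figure D2:**
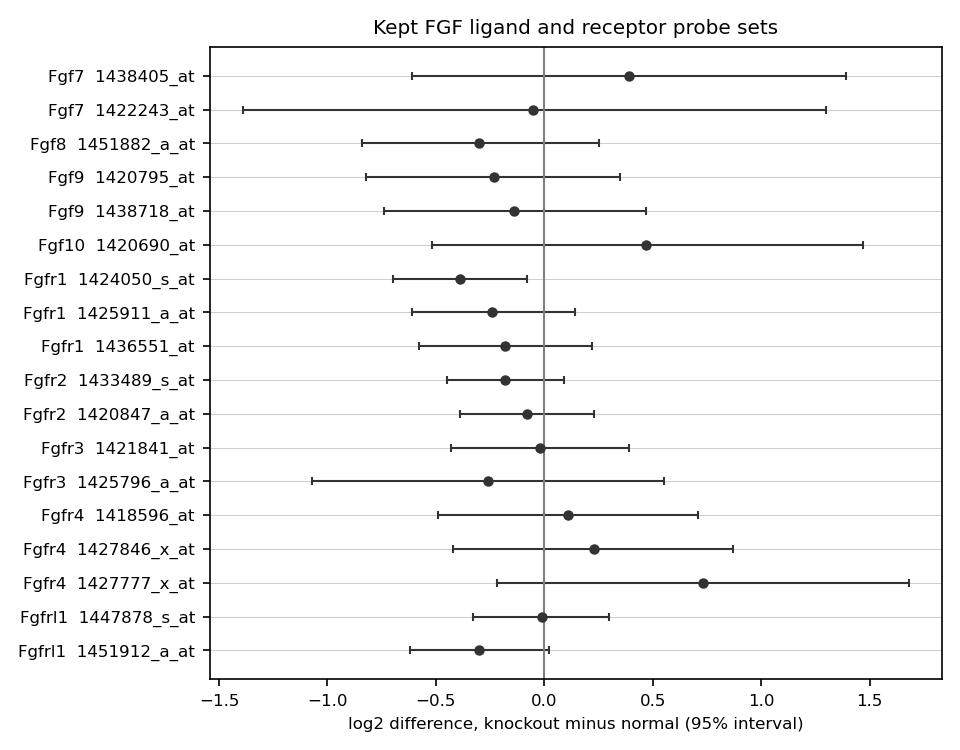
Log2 difference, knockout minus normal, of the 18 kept probe sets of FGF ligands and receptors, with 95% intervals from limma. Of these intervals 1 excludes 0 before adjustment, that of Fgfr1 1424050_s_at, from -0.70 to -0.08; the widest belong to Fgf7, Fgf10 and the dim Fgfr4 probe set.

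Fgfr4, a receptor also expressed by muscle progenitors, had 5 probe sets, of which 3 were kept. Probe set 1427777_x_at gave signals of 13.8, 15 and 13 on normal arrays 1 to 3 and of 26.9, 34.7 and 13.1 on knockout arrays 1 to 3. Knockout replicates 1 and 2 were well above every normal array and knockout replicate 3 was among them. Of its 6 arrays, 3 lay above the filter signal of 14.7, namely normal replicate 2, which was just above it, and knockout replicates 1 and 2. Its mean signal was 13.9 on normal arrays, under the filter signal, and 24.9 on knockout arrays. It was thus kept only through the group in which it was higher. Its log2 difference was 0.73 (SE 0.42, 95% interval from -0.22 to 1.68; limma adjusted p = 0.540), and 0.43 without knockout replicate 2. The brightest, 1418596_at, read 38.4, 50.1 and 34.4 and then 39.3, 57.6 and 36.8, at 0.11 (SE 0.27; limma adjusted p = 0.898) and at -0.09 without knockout replicate 2. The third, 1427846_x_at, read 25.5, 18.4 and 25.1 and then 26.2, 28.4 and 25.3, at 0.23 (SE 0.28; limma adjusted p = 0.791) and at 0.07 without normal replicate 2.

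All 3 kept Fgfr4 probe sets were highest in knockout replicate 2. The 8 skeletal muscle markers were above every normal array for 7 genes in knockout replicate 1, for 8 in knockout replicate 2 and for 1 in knockout replicate 3. Their summed signal was 386 to 495 on normal arrays and 1165, 6847 and 470 on knockout replicates 1 to 3, and none was at 0. The part of muscle RNA in the Fgfr4 values was not tested. The 2 Fgfr4 probe sets under the filter had lower mean signals in the knockout group, with no test. Probe set 1427776_a_at read 19.3, 7.5 and 9.7 and then 0.4, 5.9 and 4.3. The platform annotates it to the same sequence as 1427777_x_at, whose mean signal was higher in the knockout group. The reason for this disagreement was not tested. The other, 1427845_at, was at or under 7.2 on every array. No direction is read from signals this low.

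**Figure D3:**
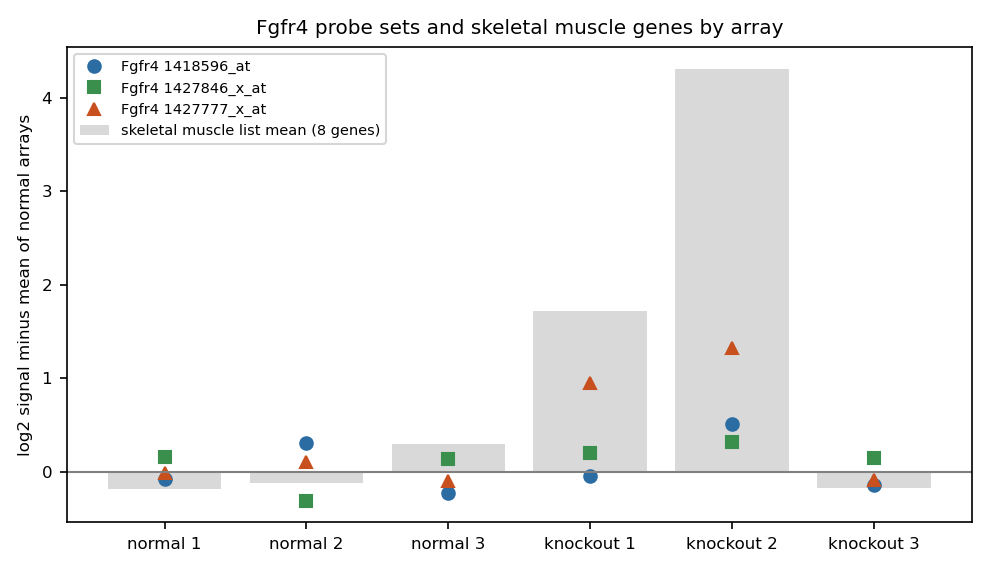
Log2 signal minus the normal mean on each of the 6 arrays, with points for the 3 kept Fgfr4 probe sets and bars for the mean of 8 skeletal muscle genes. Fgfr4 1427777_x_at, kept only through the knockout group, stood at 0.95, 1.32 and -0.09 on knockout replicates 1 to 3. The muscle mean there was 1.72, 4.31 and -0.17. The brightest, 1418596_at, stood at -0.04, 0.51 and -0.14, and 1427846_x_at at 0.20, 0.32 and 0.15. On normal replicate 2, 1418596_at stood at 0.31 and the muscle mean at -0.12.

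Fgfrl1, the receptor without a kinase, was measured by 2 bright probe sets, and the difference between them was not tested. The brighter, 1447878_s_at, gave signals of 309, 443 and 416 on normal arrays 1 to 3 and of 366, 392 and 388 on knockout arrays 1 to 3, with the knockout arrays inside the normal span. Its log2 difference was -0.01 (SE 0.14, 95% interval from -0.33 to 0.30; limma adjusted p = 0.983). The other, 1451912_a_at, read 286, 218 and 207 and then 194, 184 and 195, all 3 knockout arrays below all 3 normal ones. Its log2 difference of -0.30 (SE 0.14, 95% interval from -0.62 to 0.02) did not pass (limma adjusted p = 0.460) and was -0.15 without normal replicate 1. With the mean of both, Fgfrl1 stood at -0.15 (SE 0.09; limma adjusted p = 0.514).

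The rest of the pathway was followed through 77 further genes in 4 lists, of which 54 were tested by their brightest kept probe set. None passed an adjusted p under 0.05 in either direction, against 0.602% of the 12464 genes tested (limma, Benjamini-Hochberg). An unadjusted p under 0.05 was reached by 8 of the 54, 1 higher and 7 lower in the knockout, against 11.7% of all genes tested. That count depends on the probe sets used and on the fit. With the mean of all kept probe sets of a gene it was 3 of the 54, all in the feedback and target list. Over all genes it was 1493 of 12464. The median log2 difference of the 54 was -0.03, against -0.00 for all genes tested.

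Of 18 other FGF family genes, not all of them secreted ligands, 8 were bright enough to test, 5 with a log2 difference above and 3 below 0. The smallest p-values belonged to Fgf12, an intracellular FGF homologue, at -0.72 (SE 0.39), Fgf17, of the Fgf8 subfamily, at -0.64 (SE 0.36), Fgf1 at 0.39 (SE 0.27) and Fgf18 at 0.30 (SE 0.39). Leaving out 1 array moved Fgf12 to -0.34 (without knockout replicate 3), Fgf1 to 0.23 (without normal replicate 1) and Fgf18 to between 0.07 (without knockout replicate 2) and 0.62 (without normal replicate 1). Fgf17 gave signals of 15.8, 23.5 and 17.5 on normal arrays 1 to 3 and of 10.6, 12.8 and 12.6 on knockout arrays 1 to 3, all 3 of the latter under the filter signal of 14.7. Fgf20, which acts with Fgf9 on nephron progenitors and is named here after its values were seen, stood at 0.03 (SE 0.34).

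Among co-receptors, binding proteins and heparan sulfate enzymes, 11 of 16 genes were tested, 5 above and 6 below 0. Sulf2, an extracellular sulfatase that trims heparan sulfate, had the smallest p. It gave signals of 1652, 2127 and 2121 on normal arrays 1 to 3 and of 2337, 2289 and 2450 on knockout arrays 1 to 3, with no overlap. Its log2 difference was 0.27 (SE 0.11; limma adjusted p = 0.397), and 0.15 without normal replicate 1, the lowest array, and its other kept probe sets stood at 0.05 and 0.08. The sulfotransferase Hs6st1 stood at -0.47 (SE 0.29), a value that rests on normal replicate 1 (276 against 122 and 122 on the other normal arrays) and was -0.08 without it. The sulfotransferase Hs2st1 stood at 0.10 (SE 0.08) and the FGF receptor-binding membrane protein Flrt2 at -0.08 (SE 0.08). Other kept probe sets of these genes stood apart, at 0.13, -0.78 and -0.03 for Hs2st1 and at 0.40 and -0.09 for Flrt2. With the mean of all kept probe sets the signs turned, to -0.15 for Hs2st1 and 0.08 for Flrt2.

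Of 21 intracellular carriers of the signal 15 were tested, 5 above and 10 below 0. The kinase Akt1 stood at -0.32 (SE 0.11; limma adjusted p = 0.358), with normal arrays at 1142, 974 and 841 and knockout arrays at 755, 801 and 799 for replicates 1 to 3, without overlap. The MAP kinase kinases Map2k2 and Map2k1 stood at -0.30 (SE 0.15) and -0.24 (SE 0.14), and the Ras exchange factor Sos1 at -0.17 (SE 0.08). Without normal replicate 1, Akt1 stood at -0.21 and Map2k2 at -0.14. Map2k1 was -0.09 without normal replicate 2 and -0.34 without normal replicate 1. With the mean of all its kept probe sets Akt1 stood at -0.20.

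The feedback and target list had 20 of 22 genes tested, 14 below and 6 above 0, against 51.9% of all kept probe sets below 0. The median log2 difference was -0.21, against -0.00 for all genes tested. Of these 20, 6 had an unadjusted p under 0.05, all lower in the knockout, against 11.7% of all genes in either direction. This count depends on the probe sets used and on the fit. With the mean of all kept probe sets of a gene it was 3 of 20, with Wnt4 and Spred3 lower and Spry2 higher. Spred3 and Spry2 have 1 kept probe set each. Their log2 differences were the same in both fits, and their unadjusted limma p by the brightest probe set was 0.0676 and 0.0515. Wnt4, the signal for epithelial conversion that depends on Fgf8, gave signals of 677, 483 and 362 on normal arrays 1 to 3 and of 270, 208 and 289 on knockout arrays 1 to 3. The groups did not overlap, and the log2 difference was -0.95 (SE 0.22; limma adjusted p = 0.133). With arrays centred to a common median the difference was -0.94 (SE 0.24) and passed the threshold (limma adjusted p = 0.0192). It passed there without a larger difference or a smaller SE, in a fit where 434 of all kept probe sets passed against 157. Over the arrays left out in turn the limma adjusted p ranged from 0.0637 to 0.454. Lhx1, a transcription factor of the same stage, stood at -0.43 (SE 0.16; limma adjusted p = 0.380), and the cell cycle gene Ccnd1 at -0.30 (SE 0.09; limma adjusted p = 0.311). Other kept probe sets stood at -0.90 for Wnt4, at -0.25 for Lhx1 and at 0.11 and -0.34 for Ccnd1. Wnt4, Lhx1 and Ccnd1 are also in the renal vesicle marker list and are not independent of it.

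The ETS factors Etv4 and Etv5, transcriptional outputs of receptor tyrosine kinases, stood at -0.66 (SE 0.24; limma adjusted p = 0.376) and -0.29 (SE 0.12; limma adjusted p = 0.411). Etv4 gave signals of 245, 176 and 125 on normal arrays 1 to 3 and of 123, 90 and 124 on knockout arrays 1 to 3, its other kept probe set stood at 0.16, and without normal replicate 1 the difference was -0.42. Bmp7, named with Etv5 because it completes the 6, stood at -0.35 (SE 0.16; limma adjusted p = 0.436). The other kept probe sets stood at -0.07 and -0.09 for Bmp7 and at -0.14 and -0.17 for Etv5. The inhibitors of the pathway on this list are all given by their brightest probe set, a grouping made after their values were seen, and none passed. The Sprouty genes Spry1, Spry2, Spry3 and Spry4 stood at -0.21 (SE 0.13), 0.24 (SE 0.11), 0.20 (SE 0.29) and 0.03 (SE 0.22). The related Spred1, Spred2 and Spred3 stood at 0.19 (SE 0.10), -0.15 (SE 0.09) and -0.47 (SE 0.22). The MAP kinase phosphatases Dusp4 and Dusp6 stood at -0.22 (SE 0.14) and 0.06 (SE 0.10), and the membrane inhibitor Il17rd at -0.05 (SE 0.15). Further kept probe sets of Spred1 stood at -0.15, -0.06, 0.02, -0.22 and -0.13, and of Spred2 at 0.27, -0.51 and -0.41. Those of Spry4 and Il17rd stood at -0.03 and -0.20. The sign for Spred1 and Spred2 thus depends on the probe set.

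**Figure D4:**
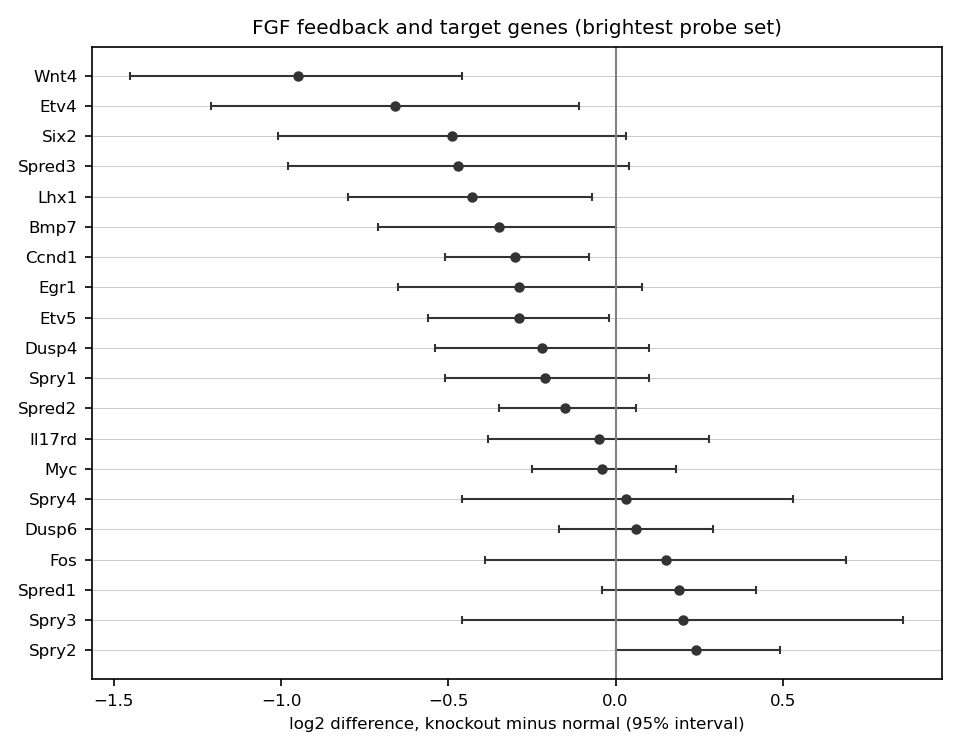
Log2 difference, knockout minus normal, of the 20 tested genes of the FGF feedback and target list by their brightest probe set, with 95% intervals from limma. The points run from Wnt4 at -0.95 to Spry2 at 0.24, and 6 intervals lie below 0 before adjustment.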

How the data were processed

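Total RNA of 6 samples was hybridised to single-colour Affymetrix arrays. The authors deposited a linear signal intensity for each probe set, and the submitters' processing notes name MAS5; no version or detection call is given in the sources used here. Array medians spanned 0.37 on the log2 scale, under a limit of 0.5, so no further scaling was applied. Before log2, 15 values of 0 were replaced by 1.70, which is the 10th percentile of all positive signals. After 64 controls were left out, probe sets with a mean log2 signal above the 40th percentile (a signal of 14.7) were kept, which left 27022 probe sets. The number of arrays limits the precision.

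Symbols came from the platform annotation, updated through gene identifiers: 34945 probe sets had 1 symbol, 932 several and 9160 none here. Listed pathway genes were represented by their brightest kept probe set. Of the 77 listed genes 67 matched a probe set with a single symbol, and the others were not analysed here. The test was limma's (version 3.58.1, R 4.3.3; lmFit, eBayes with intensity trend) and Benjamini-Hochberg adjustment, without a replicate block. Differences are knockout minus normal. Named are every member, the 4 genes of each pathway list with the smallest p, and the 5 genes most like the leading member. The members and lists were chosen with earlier results of these data known. The fit was tested on simulated data. Alternatives covered scaling, filters, a pseudocount of 16, variance model, array weights, the replicate block and leaving out arrays. Probe set names ending in _s_at or _x_at mark probes that can match transcripts of other genes.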

Additional observations from a re-analysis of the deposited data

How the results depend on the processing

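No FGF ligand or receptor probe set passed the threshold under any alternative run (0 in each, leaving out each array included, which gave 0 to 0). The pathway lists gave 0 genes past it in each alternative but 1: with arrays centred to a common median, 1 gene passed, Wnt4. Over all kept probe sets the count past the threshold was 157 in the reported fit and ran from 41 without the intensity trend to 434 with arrays centred to a common median, and with arrays left out in turn from 49 to 148. Counted on rounded values, signs turned for 4 of 152 member values under settings other than leaving out 1 array. Values rounded to 0.00 are not counted, as for Fgfr3 1421841_at and Fgfrl1 1447878_s_at with quantile normalization. Fgf7 1422243_at stood at 0.03 with a pseudocount of 16. With normal replicate 1 and knockout replicate 2 left out together, an alternative chosen after seeing the data, Fgfr2 1420847_a_at stood at 0.10, Fgfr3 1421841_at at 0.07 and Fgfr4 1418596_at at -0.13. With each array left out in turn, signs turned for 6 of 18 kept probe sets, with ranges of -0.02 to 0.69 (Fgf7 1438405_at), -0.60 to 0.62 (Fgf7 1422243_at), -0.19 to 0.03 (Fgfr2 1420847_a_at), -0.12 to 0.12 (Fgfr3 1421841_at), -0.09 to 0.27 (Fgfr4 1418596_at) and -0.17 to 0.09 (Fgfrl1 1447878_s_at). The cause was not tested. Of the 16 named pathway genes 14 kept their sign under every alternative that gave them a value; with the mean of all kept probe sets of a gene, Flrt2 stood at 0.08 and Hs2st1 at -0.15. No pairing by replicate number is stated for the arrays. Deviations of same-numbered arrays correlated at 0.083, -0.108 and -0.201, and those of differently numbered arrays at -0.232 to 0.302. With 3 arrays per group these values cannot decide whether any arrays are paired. With the replicate block 0 FGF probe sets and 0 pathway genes passed, and 109 of all kept probe sets against 157. With the filter at the 60th percentile 8 FGF probe sets were tested. Signals of Fgf7, Fgf10 and Fgfr4 1427777_x_at lie near the filter, and their intervals are the widest of the 18.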
